A study of Mus musculus with 4 samples.

Results

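The DYRK and HIPK kinases are described here by the messenger RNA levels of 8 genes: Dyrk2, its 4 relatives Dyrk1a, Dyrk1b, Dyrk3 and Dyrk4, and the HIPK genes Hipk1, Hipk2 and Hipk3. The 8 genes were chosen by symbol, with no threshold on their values, among 55573 gene identifiers in each deposited file, and their symbols were matched through GENCODE M21. Of the 8, 6 reached 1 FPKM, a unit that scales a gene's fragments to its exon length and to the library's total, in at least 1 library and counted as measured. Dyrk3 and Dyrk4 did not.

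The study set Dyrk2 loss against wild type in primary mouse embryonic fibroblasts, cells grown out of embryos and used before they become a line. Every culture had received SAG, a compound that activates Smoothened and so the Hedgehog pathway, at 100 nM for 24 h. The 4 groups were wild type, Dyrk2 knockout, a negative-control siRNA (siNeg) and an siRNA against Dyrk2 (siDyrk2), with 1 RNA sequencing library each. Both siRNAs were given to wild-type fibroblasts, and the group called wild type was not transfected. The labels do not describe the knockout allele, the siRNA sequence, the siRNA dose or the embryos behind each culture, and cultures without SAG were not analysed here. No difference below therefore has a replicate check. Unless called approximate, the intervals given are exact 95% intervals on estimated fragments. All cover counting error and not differences between cultures.

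Kinases of the DYRK family phosphorylate serine and threonine of their targets, and while they are being made they phosphorylate a tyrosine in their own activation loop. DYRK2 has been described both as a kinase and as the scaffold of the EDVP ubiquitin ligase, and it acts on Hedgehog signalling through the GLI transcription factors. The HIPK kinases form a neighbouring family that binds transcription factors and co-repressors in the nucleus.

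The members can be compared in the coding letters of the activation loop. The stretch shown is 36 bases long in each gene, read on the coding strand from the GENCODE M21 transcript with the longest coding part. Capitals mark a tyrosine codon at the outer positions of the Tyr-x-Tyr motif, of which the DYRK genes carry 2 and the HIPK genes 1.
Dyrk2: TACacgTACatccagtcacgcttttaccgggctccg
Dyrk3: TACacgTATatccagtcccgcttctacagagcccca
Dyrk4: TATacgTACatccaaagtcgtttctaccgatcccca
Dyrk1a: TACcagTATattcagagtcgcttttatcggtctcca
Dyrk1b: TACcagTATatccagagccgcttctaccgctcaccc
Hipk1: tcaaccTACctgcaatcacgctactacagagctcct
Hipk2: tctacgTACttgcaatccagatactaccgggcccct
Hipk3: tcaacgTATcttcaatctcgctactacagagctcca

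Over the 28 pairs, the closest loops were those of Hipk1 and Hipk3, which differed at 5 bases. Dyrk2 differed from Dyrk3 at 7 bases, as did Dyrk1a from Dyrk1b. The Dyrk2 loop differed at 10 to 11 bases from those of the other 3 DYRK genes and at 11 to 12 from the HIPK genes. Dyrk3 differed from Hipk3 at 8 bases, fewer than from Dyrk1b (9), Dyrk4 (9) or Dyrk1a (12). Base differences in this stretch therefore did not fully separate the DYRK from the HIPK genes. In Dyrk2 the stretch lies in exon 3 at chr10:118860185-118860220 on the minus strand (GRCm38). In each DYRK gene it lay within 1 exon, whereas in all 3 HIPK genes it ran across the junction of exons 2 and 3.

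Dyrk2 (ENSMUSG00000028630) is on chromosome 10 at 118855603 to 118870209, minus strand. Its main transcript has 3 exons, and exon 3, at 118855603 to 118861153, holds 90.6% of its bases. Dyrk2 was at 6.59 FPKM in wild type, 0.57 in the knockout, 7.06 with siNeg and 0.81 with siDyrk2. Both libraries labelled as lacking or depleted of Dyrk2 were low, both controls were high, and no interval of the one pair reached the other.

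The knockout library kept 8.65% of the wild-type FPKM (6.78 to 10.9%), a log2 ratio of FPKM + 1 of -2.27. Only 7 of 12817 measured genes lay as far from 0, Dyrk2 included. The siDyrk2 library kept 11.5% of the siNeg level (9.34 to 14.0%), a log2 ratio of -2.15, and 6 genes lay as far from 0. The controls differed little, with siNeg at 1.07 times wild type (0.977 to 1.17). The remaining signal came from an estimated 78 fragments in the knockout and 109 with siDyrk2, against 986 in wild type and 882 with siNeg. Gene-level values do not tell which exons these fragments came from. The remaining level is above the 0.0219 and 0.0224 FPKM that 3 fragments would give for Dyrk2 in those libraries.

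Sequence shared with other genes was counted for Dyrk2. Of 6245 windows of 50 bases in its transcripts, 0 occur in a transcript of another member. The opposite-strand gene 4932442E05Rik shares 4.5% of the windows and was listed at 0 in all 4 libraries.

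**Figure D1:**
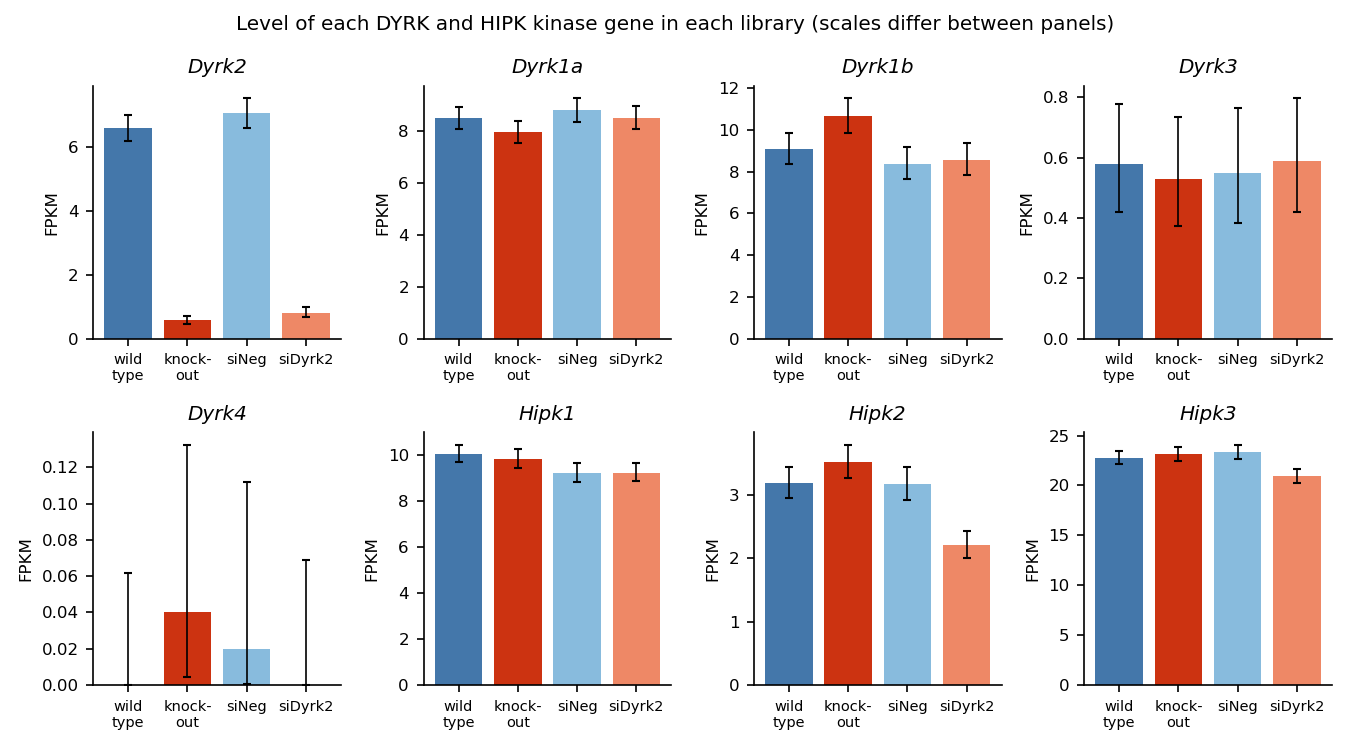
Level of each gene in FPKM (vertical axes, starting at 0 and differing between panels) in the 4 libraries, 1 bar per library; error bars are exact 95% counting intervals. Dyrk2 is at 0.57 and 0.81 FPKM in the knockout and siDyrk2 bars against 6.59 and 7.06 in the controls. No measured relative differs as far, and Hipk2 is lowest with siDyrk2, at 2.21 FPKM against 3.17 with siNeg.

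The other DYRK genes were read for whether a relative was more abundant in the libraries where Dyrk2 was low. With 1 library per group, their values describe these libraries and do not settle that question. Dyrk1a, a dosage-sensitive kinase that enters the nucleus and acts on splicing factors and the DREAM complex, was at 8.51 FPKM in wild type, 7.97 in the knockout, 8.82 with siNeg and 8.53 with siDyrk2. All 4 values lay close together, and neither Dyrk2-low library was above its control. Its ratios were 0.937 (0.872 to 1.01) in the knockout and 0.967 (0.899 to 1.04) with siDyrk2.

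Dyrk1b, also called Mirk, is known for holding cells in quiescence and for a part in muscle differentiation. It was at 9.07 FPKM in wild type, 10.65 in the knockout, 8.38 with siNeg and 8.57 with siDyrk2. The knockout library was the highest of the 4, and the siDyrk2 library was level with both controls. The knockout ratio was 1.17 (1.05 to 1.32), a log2 ratio of 0.21, and 30.8% of the measured genes lay as far from 0. The siDyrk2 ratio was 1.02 (0.899 to 1.17).

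Dyrk3, which dissolves stress granules and other condensates, was low throughout, at 0.58, 0.53, 0.55 and 0.59 FPKM in wild type, knockout, siNeg and siDyrk2. These are 35 to 44 fragments a library, so its ratios were known only to between 0.578 and 1.46 in the knockout and between 0.659 and 1.72 with siDyrk2. Dyrk4 was listed at 0 FPKM in wild type and siDyrk2, 0.04 in the knockout and 0.02 with siNeg, which is 0, 0, 2 and 1 fragments. Each was under its floor of 3 fragments (0.0504 to 0.0603 FPKM), so a difference in Dyrk4 was not detectable at this depth.

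Among the HIPK genes, Hipk1 was at 10.05 FPKM in wild type, 9.83 in the knockout, 9.22 with siNeg and 9.22 with siDyrk2. The 2 siRNA libraries were equal to the last printed digit, and both lay slightly under the other 2. The controls differed more than either Dyrk2 comparison, with siNeg at 0.917 of wild type (0.865 to 0.973).

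Hipk2, a kinase of the DNA damage response that phosphorylates p53, was at 3.19 FPKM in wild type, 3.52 in the knockout, 3.17 with siNeg and 2.21 with siDyrk2. The siDyrk2 library was the lowest of the 4, and the knockout library was the highest. With siDyrk2 the ratio was 0.697 (0.612 to 0.792), a log2 ratio of -0.38, and 16.8% of the measured genes lay as far from 0. In the knockout it was 1.10 (0.991 to 1.23). Against wild type in place of siNeg, the siDyrk2 ratio was 0.693 (0.612 to 0.784).

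The siRNA sequence is not given in the sources used here, so its match to Hipk2 could not be looked up. Windows of 19 bases, the length of an siRNA duplex core, were compared between transcripts. Of 6244 such windows of Dyrk2, 13 occur in Dyrk3, 2 in Hipk2 and 0 in each of the other 5 relatives. The longest run that the coding parts of Dyrk2 and Dyrk3 share is 29 bases, in Dyrk2 exon 3 at chr10:118860546-118860574, and is shown because any siRNA placed within it would match both genes.
Dyrk2 and Dyrk3, shared coding run: caggcggccgaggagatccggatcttgga

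The longest coding run shared with Dyrk4 was 17 bases, and with the other relatives it was 10 to 14. Dyrk3, with the longest run, had a siDyrk2 ratio of 1.07 (0.659 to 1.72). Hipk2 also shares 4.77% of its 50-base windows with Ubn2, which was at 1.79, 1.67, 2.01 and 1.42 FPKM in wild type, knockout, siNeg and siDyrk2. Ubn2 was lowest in the siDyrk2 library, as Hipk2 was, and its part in the Hipk2 value was not tested. Tbxas1, which overlaps Hipk2 on the opposite strand, was at 0.21 FPKM or lower.

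Hipk3 was the most abundant member in each library, at 22.77 FPKM in wild type, 23.13 in the knockout, 23.34 with siNeg and 20.93 with siDyrk2. The siDyrk2 library was the lowest and the other 3 lay together. Its ratio was 0.897 with siDyrk2 (0.856 to 0.939; log2 -0.15) and 1.02 in the knockout (0.973 to 1.06).

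**Figure D2:**
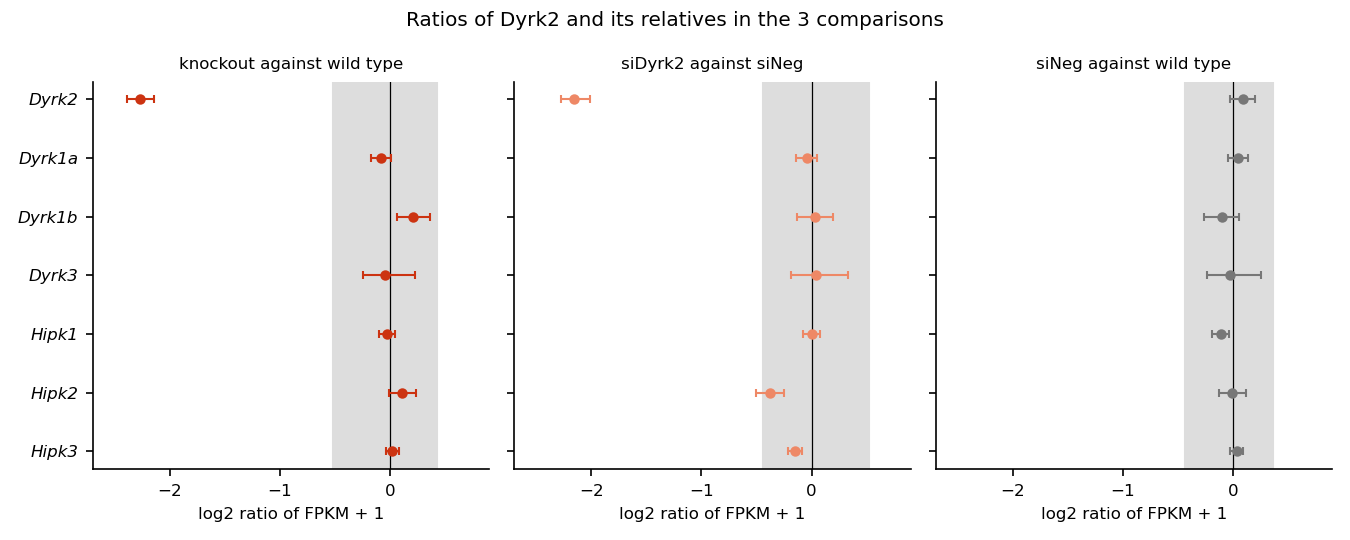
Log2 ratio of FPKM + 1 (horizontal axis) of Dyrk2 and 6 relatives in the 3 comparisons, 1 panel each. Points are ratios between single libraries, and grey bands the 5th to 95th percentile of the measured genes. Bars are approximate 95% counting intervals, carried from the plain ratio to FPKM + 1 with the control level held fixed. Dyrk2 is at -2.27 and -2.15, far left of the bands, and every relative lies inside them.

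Across the relatives, 0 of the 5 measured relatives differed by 1.5-fold or more on FPKM + 1 in any comparison. By the same rule, 6.62% of the measured genes differed in the knockout, 6.5% with siDyrk2 and 3.78% between the controls. At 2-fold the count of relatives was likewise 0, beside 1.78%, 1.54% and 0.928% of the measured genes. In the knockout, 3 relatives were higher and 2 lower, with a median log2 ratio of 0.02 beside -0.02 for the measured genes. With siDyrk2, 1 was higher, 3 were lower and Hipk1 was equal, with a median of -0.04 beside 0.02. Between the controls 2 were higher and 3 lower, with a median of -0.01 beside -0.01. Under rescaling to a common sum over genes (TPM), Dyrk1b moved from 0.03 to -0.04 with siDyrk2 and Hipk1 from 0.00 to -0.07, so that all 5 were then lower.

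Intervals that left out a ratio of 1 were common in the data, at 45.3% of the measured genes in the knockout, 51.5% with siDyrk2 and 46.5% between the controls. Among the 5 measured relatives this held for Dyrk1b in the knockout, for Hipk2 and Hipk3 with siDyrk2, and for Hipk1 between the controls. At 1, 2 and 1 of 5, these counts are near or under the background, and they cover counting error only.

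The FPKM of the 7 relatives summed to 54.17 for wild type and to 55.67 for the knockout, a difference of 2.77%. Its approximate interval, with the width of a pooled-fragment interval centred on this difference, was -0.0999 to 5.64% and narrowly includes 0. Dyrk2 itself differed by -6.02 FPKM. The difference in the sum was 1.27% under TPM and 4.37% under trimmed-mean scaling, both added after seeing the data. With siNeg the sum was 53.5 FPKM and with siDyrk2 50.05, a difference of -3.45 FPKM (-6.45%), where Dyrk2 differed by -6.25. Dyrk1b alone was 1.58 FPKM higher in the knockout, and the other relatives' differences nearly cancelled.

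Dyrk2 made up 10.8% of the 8 genes' summed FPKM in wild type and 11.7% with siNeg. Its share was 1.01% in the knockout and 1.59% with siDyrk2. Within the 5 DYRK genes its share was 26.6% and 28.4% in the controls, and 2.88% and 4.38% in the Dyrk2-low libraries.

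In wild type the order of levels was Hipk3, Hipk1, Dyrk1b, Dyrk1a, Dyrk2, Hipk2, Dyrk3 and Dyrk4. The intervals of Hipk1 and Dyrk1b overlapped, as did those of Dyrk1b and Dyrk1a, while the other neighbours were apart. Dyrk2 was at rank 5 in both controls. It was at rank 6 in the knockout and siDyrk2 libraries, where its interval overlapped that of Dyrk3. Hipk3, Hipk2, Dyrk3 and Dyrk4 kept their order relative to each other in all 4 libraries.

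The ligase and substrate genes around DYRK2 were read from lists. The EDVP ligase joins DYRK2 to the adaptor DDB1 and the substrate receptor DCAF1 (VprBP), among others, and katanin p60 (Katna1) is its described substrate. Dcaf1 was at 6.38, 5.82, 7.06 and 5.62 FPKM in wild type, knockout, siNeg and siDyrk2, and Ddb1 at 140.89, 133.53, 151.76 and 144.73. Both were slightly lower in each Dyrk2-low library than in its control and slightly higher with siNeg than in wild type, and neither differed by 1.5-fold. Katna1 was listed at 0 FPKM in 3 libraries and at 0.10 in the knockout.

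The 19 genes listed as DYRK2 substrates, partners or E3 ligases were all measured. In the knockout 11 were higher and 8 lower, and 2 were at least 1.5-fold lower (4.04% of the measured genes were). With siDyrk2 12 were higher and 7 lower, and 1 was at least 1.5-fold lower (2.73%). The medians were 0.02 and 0.08, beside -0.02 and 0.02 for the measured genes, and 0.01 between the controls. Jun, an AP-1 transcription factor gene, was the 1 listed gene at least 1.5-fold lower with siNeg than in wild type (2.37%), at 24.23 against 38.58 FPKM.

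Gli2, a GLI transcription factor of the Hedgehog pathway, was at 20.38 FPKM in wild type, 8.66 in the knockout, 20.80 with siNeg and 9.05 with siDyrk2. It was low in both Dyrk2-low libraries and was the listed gene at least 1.5-fold lower in both, with log2 ratios of -1.15 and -1.12. Snai1, a repressor of epithelial genes, was at 26.53, 16.84, 37.67 and 26.81 FPKM in the same order. Its siDyrk2 level was near the wild-type level, and siNeg was the highest library. Tbk1, a kinase of antiviral signalling, was at 11.06, 11.44, 11.99 and 8.58 FPKM, and only the siDyrk2 library was low. Ncoa3, a nuclear receptor coactivator, was at 7.37, 10.06, 7.16 and 8.13 FPKM, highest in the knockout.

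Scaffolds, partners and substrates of the DYRK1 and HIPK kinases were also close to their controls. All 17 were measured. The knockout had 6 higher and 11 lower (median -0.06), and siDyrk2 had 8 higher and 9 lower (median -0.01). Ccnd1, cyclin D1, whose protein is a DYRK1 target, was at 131.92, 78.57, 141.77 and 117.78 FPKM in wild type, knockout, siNeg and siDyrk2, and was the 1 gene of 17 at least 1.5-fold lower in the knockout, where 4.04% of the measured genes were. That count is near the background. Spry2, a feedback inhibitor of receptor tyrosine kinase signalling, was highest in the knockout, at 33.12 against 22.57 FPKM in wild type. Siah1b, a ubiquitin ligase gene, was at 2.14 FPKM in the knockout against 3.49, and 2.57 with siDyrk2 against 3.54. Wsb1, which encodes an E3 ligase for HIPK2, was at 34.98 FPKM in wild type and 27.61 to 28.37 in the other 3 libraries.

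Of 20 matched genes for other kinases of the same CMGC group, 16 were measured. In the knockout 5 were higher and 11 lower (median -0.07), and the counts with siDyrk2 were again 5 and 11 (median -0.06). None of the 16 differed by 1.5-fold in either, beside 6.62% and 6.5% of the measured genes, which for a list of this size is also near the background. Gsk3b, a Wnt and Hedgehog pathway kinase, was at 18.46, 17.23, 14.77 and 11.22 FPKM in wild type, knockout, siNeg and siDyrk2, lowest with siDyrk2. Mapk3, the ERK1 gene, was at 47.85, 59.61, 52.09 and 60.34 FPKM, higher in both Dyrk2-low libraries than in either control. Clk3, a splicing kinase, was at 5.99 FPKM with siDyrk2 against 7.59 with siNeg. Clk1 was at 7.44 against 8.76.

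**Figure D3:**
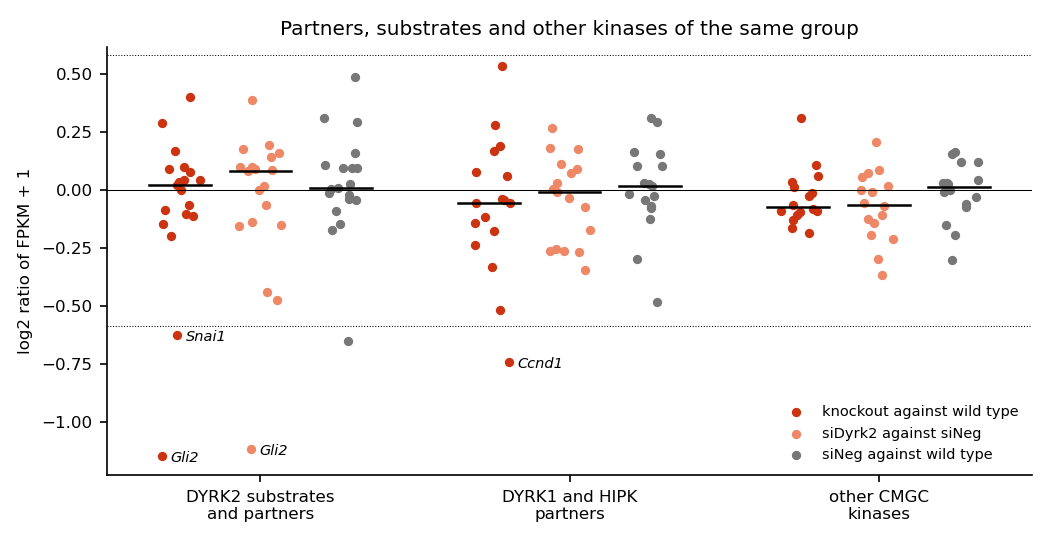
Log2 ratio of FPKM + 1 (vertical axis) for every measured gene of 3 lists, 1 point per gene and comparison, with horizontal bars at the medians and dotted lines at 1.5-fold. Points gather near 0, and Gli2 stands at -1.15 and -1.12.

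Hipk4, the remaining HIPK gene, was among the unmeasured CMGC genes, at 0.39, 0.34, 0.41 and 0.29 FPKM in wild type, knockout, siNeg and siDyrk2.

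The genes whose profile over the 4 libraries was most like that of Dyrk2 were sought among 11127 measured protein-coding genes, by Euclidean distance between log2(FPKM + 1) profiles centred on their own mean. Of the nearest 5, 3 are described: Hhip at a distance of 0.542, Ptch1 at 0.553 and Lepr at 0.617, where the median gene was at 2.23 and 13 genes lay within 1. Ptch1 encodes a Hedgehog receptor, Hhip a Hedgehog-binding membrane protein and Lepr the leptin receptor. They were selected for this likeness over 4 libraries, so their values are a description.

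Hhip was at 3.87 FPKM in wild type, 0.15 in the knockout, 2.64 with siNeg and 0.25 with siDyrk2. Ptch1 was at 16.32, 1.23, 16.03 and 1.95 FPKM in the same order, and Lepr at 5.98, 0.45, 3.48 and 0.24. All 3 were high in the controls and low in the Dyrk2-low libraries, as Dyrk2 was, but unlike Dyrk2 they were lower with siNeg than in wild type.

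**Figure D4:**
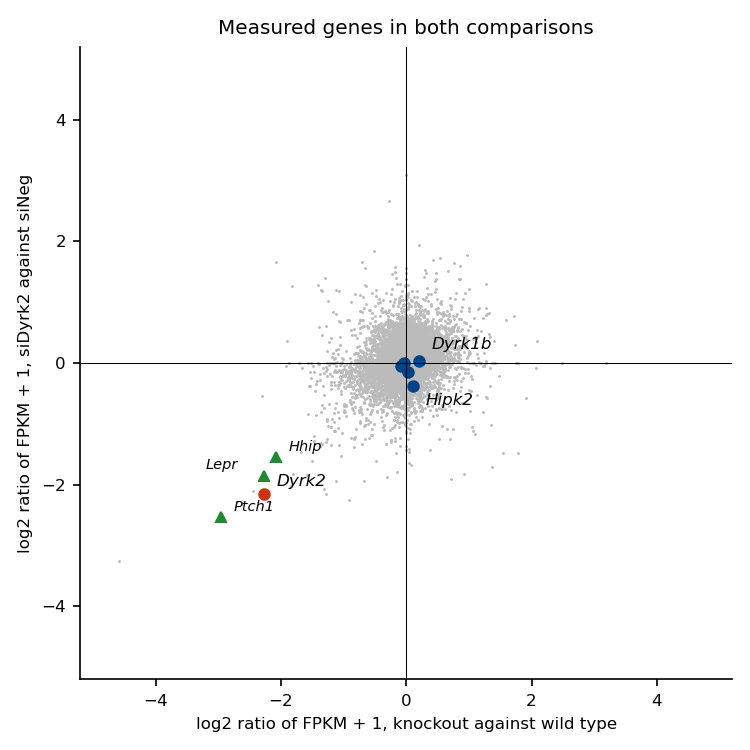
Log2 ratio of FPKM + 1 in the knockout comparison (horizontal axis) and the siDyrk2 comparison (vertical axis), 1 point per measured gene, with Dyrk2 in red, its 5 measured relatives in blue and 3 genes of near profile (Hhip, Ptch1 and Lepr) as green triangles. Dyrk2 lies at -2.27 and -2.15 among the triangles, and the relatives lie near the origin.

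Around the Dyrk2 locus itself, 53 other annotated genes lie within 1 Mb. Of these 40 were listed at 0 in every library and 3 were measured. Cand1, which regulates cullin ligases, was at 23.77, 21.24, 23.88 and 24.29 FPKM in wild type, knockout, siNeg and siDyrk2. Mdm1, a centriole protein gene, was at 1.17, 0.92, 1.56 and 1.49 FPKM. Neither differed by 1.5-fold in any comparison.

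The third, Gm47434, was listed at 0 in wild type, siNeg and siDyrk2 and at 1.67 FPKM in the knockout, from an estimated 92 fragments. It was at least 33.6-fold higher in the knockout than the floor of 3 fragments allows in wild type, 28.0-fold higher than in siNeg and 30.1-fold higher than in siDyrk2. It is a single-exon transcript awaiting experimental verification (TEC in GENCODE) at chr10:118832588-118835106, on the minus strand like Dyrk2 and 20.5 kb beyond the 3′ end of Dyrk2. The first 120 bases of the annotated transcript are shown to identify the gene. Gene-level FPKM does not tell which of its bases the fragments covered, and the label of the knockout gives no allele with which to compare them.
Gm47434, chr10:118834987-118835106, minus strand: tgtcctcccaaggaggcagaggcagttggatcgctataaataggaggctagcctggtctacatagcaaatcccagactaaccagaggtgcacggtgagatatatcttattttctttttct

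Of its 2470 windows of 50 bases, 10 (0.405%) occur in transcripts of other genes, and 0 of those genes are on chromosome Y. After this value was seen, the other neighbours with fragments in a single library were counted. Of the 13 neighbours with any fragment, 3 had fragments in the knockout library alone: Gm47434, Gm47425 with 10 fragments (0.42 FPKM) and Gm4065 with 3 (0.09 FPKM). All 3 are downstream of Dyrk2 and on its strand. Gm47425 begins 136 kb beyond the 3′ end of Dyrk2, and Gm4065 50.3 kb beyond it. Wild type had 1 such neighbour, with 1 fragment, and siNeg and siDyrk2 had 0.

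Across the whole genome, 4 genes had at least 20 fragments in the knockout library and 0 in the other 3: Gm47434 and the Y-linked Eif2s3y, Kdm5d and Uty. No gene met this rule in wild type, siNeg or siDyrk2. At 10 fragments the knockout count was 5, with Gm47425 added, and siDyrk2 had 2.

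**Figure D5:**
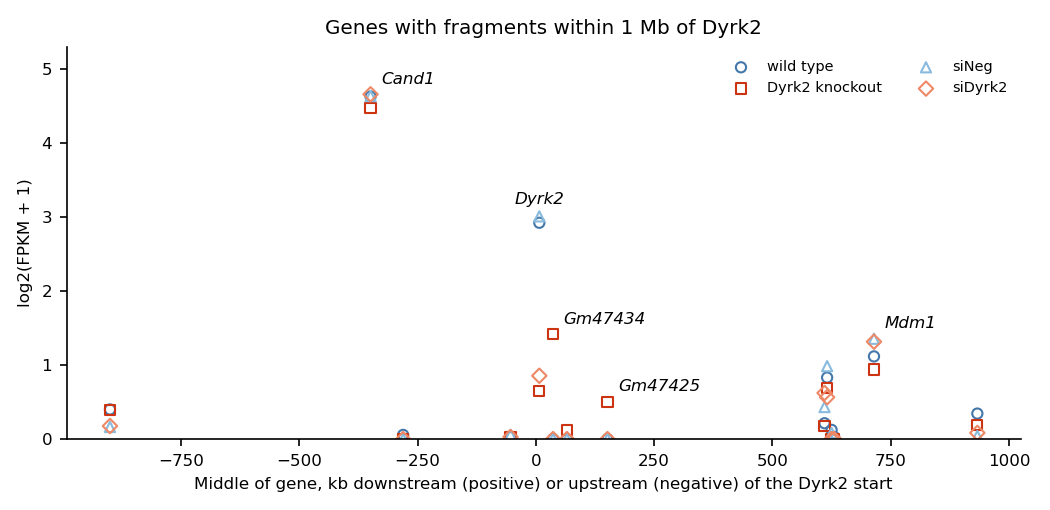
Level on the log2(FPKM + 1) scale (vertical axis) of genes with fragments within 1 Mb of Dyrk2, against the distance of the gene's middle from the Dyrk2 start in kb, downstream to the right; symbols mark the 4 libraries. Cand1 and Mdm1 have fragments in all 4 libraries, while Gm47434 and Gm47425 rise above 0 in the knockout alone.

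The libraries differed in ways other than Dyrk2. Depth was 20 to 23.9 M estimated fragments, and 11939 to 12106 genes reached 1 FPKM. The Y-linked Ddx3y was at 8.28 FPKM in the knockout and at most 0.02 elsewhere, while Xist was at 26.37 to 37.05 FPKM in all 4, so the knockout culture differed from the others in Y-linked RNA. All 12 fibroblast markers were measured, at 24.54 FPKM or more. Of the 8 macrophage and leukocyte markers 7 were measured, and all 7 were at least 1.5-fold higher in the knockout (2.58% of the measured genes were). Their sums were 229.17, 477.77, 258.75 and 322.84 FPKM in wild type, knockout, siNeg and siDyrk2. Epithelial and neuronal markers stayed under 1 FPKM, as did the endothelial markers other than Tek and the muscle markers other than Des. Of 10 G2/M genes, 10 were at least 1.5-fold lower in the knockout (4.04% background), with medians of -1.15 there, -0.17 with siDyrk2 and 0.50 between the controls. The 10 G1/S genes had medians of -1.02, -0.25 and 0.13. With 1 library per group, these differences cannot be told apart from the genotype, and their part in the values of Dyrk1b or Ccnd1 was not tested. In bulk RNA, fewer cells of a type and less RNA per cell cannot be told apart.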

How the data were processed

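Stranded, polyA-selected RNA libraries were sequenced from 4 cultures, per the labels' protocols. HISAT2 2.0.1, cutadapt 1.9.1 and GRCm38 appear in the submitters' processing notes. The sources used here state no counting program or gene annotation. FPKM with 2 decimals was deposited by the authors, per the file headers. In each library FPKM times length in kilobases summed to 1e+06 within rounding.

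The 8 members and all gene lists were chosen with earlier results of these data known. Of 55573 identifiers, 55394 matched GENCODE M21. Depth was estimated as the value that made FPKM of genes of at most 200 bases whole fragments (99.7 to 100% of 341 to 402 genes), giving 23.9, 21.9, 20 and 21.5 M fragments for wild type, knockout, siNeg and siDyrk2. For siNeg, 2 separate stretches of depth fitted equally well, and the lower was used. Ratios are of deposited FPKM, with exact 95% conditional binomial (Clopper-Pearson) intervals on the estimated fragments, and levels have exact Poisson intervals. Log2 ratios use a pseudocount of 1 FPKM, which understates differences of low genes. Genes with 1 FPKM in 1 or more libraries (12817) counted as measured and were called different from 1.5-fold on FPKM + 1. No test was possible with 1 library per group. Genes named were the 8 members, 3 of the 5 nearest profiles, genes overlapping a member, neighbours of Dyrk2 and up to 4 genes of each list by size of ratio. Some genes these rules select are not reported here. Katna1 and Hipk4 (unmeasured list members), Ubn2 (shared sequence), the marker genes and the Y-linked genes and Xist are named outside these rules, and Jun was named after its value was seen. Intervals and depth estimates were tested on simulated data. Python 3.11.15, numpy 2.4.6, pandas 2.3.3 and scipy 1.17.1 were used.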

Additional observations from a re-analysis of the deposited data

Results flagged for a closer look

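Hipk2 was higher in the knockout than in wild type and lower with siDyrk2 than with siNeg. Its log2 ratios, of opposite sign, differed by 0.49, and the interval of its knockout ratio (0.991 to 1.23) includes 1. The Hipk3 ratios, 0.02 in the knockout and -0.15 with siDyrk2, differed by 0.17, but the approximate counting interval in the knockout includes 0 (-0.04 to 0.08). With the controls exchanged the Hipk3 ratios were -0.01 and -0.12, no longer of opposite sign. Each group held 1 library, and neither difference was tested.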

How the results depend on the processing

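The 3 Dyrk2 ratios and the 0 relatives past 1.5-fold kept their direction and side under every alternative run on them: other pseudocounts, trimmed-mean and TPM scaling, other filters and, for the knockout and siDyrk2, exchanged controls. The Dyrk2 ratio depended on the pseudocount, as its construction requires at low levels: with 0.1 FPKM it was -3.32 in the knockout and -2.98 with siDyrk2, and with 5 FPKM it was -1.06 and -1.05. The share of genes past 1.5-fold, 6.62% in the knockout, 6.5% with siDyrk2 and 3.78% between the controls, was 11.5%, 11.6% and 8.5% with 0.1 FPKM, and 1.57%, 1.69% and 0.593% with 5 FPKM. Without a filter it was 1.77%, 1.74% and 1.09%. It was 11.0% for the knockout against siNeg, and 2.04% between the controls over protein-coding genes. The alternatives run on the sum of the relatives were all added after seeing the data. With siDyrk2 the difference in the sum was -11.1% under TPM scaling. For the knockout against siNeg it was 4.06%. No replicate could be left out, because each group held 1 library. No paired analysis was possible because the groups share a single replicate number. Depth limits Dyrk3 and Dyrk4.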
